A study of Mus musculus with 28 samples.

Results

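The regions described here were 11308 promoter peaks of H3K4me3 (trimethylation of histone H3 at lysine 4) that had no H3K27Ac (acetylation of H3 at lysine 27) in wild-type (WT) mouse embryonic stem cells (mESCs). They were chosen by a rule on the peak lists of the WT cells. A member was an autosomal H3K4me3 peak under 5000 bp wide that lay within 1000 bp of a transcription start site (TSS) of a protein-coding gene and shared no base with a WT peak of H3K27Ac or a WT domain of H3K9me3. Of 34823 H3K4me3 peaks in the WT list, 33695 were autosomal and 15867 of these lay at a promoter. Members made up 71.3% of the promoter peaks. The other promoter peaks were 3259 peaks under 5000 bp with H3K27Ac, 1031 peaks of 5000 bp or wider, and 269 peaks with H3K9me3. The members' nearest TSSs belonged to 9493 genes.

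The series held 28 samples, which were 16 chromatin immunoprecipitation (ChIP-seq) libraries and 12 input libraries. The cells were HATX mESCs, a haploid line with a doxycycline-inducible Xist transgene, and were either WT or clone 2 of a Spen knockout (Spen KO). Spen KO was thus 1 clone in these data, so its values cannot be told apart from those of a single cell line. Each genotype had 2 libraries for each of H3K4me3, H3K27Ac, H3K9me3 and the transcription factor Oct4, and the study calls its paired libraries technical replicates. The histone marks came as 1 combined list per genotype, so presence of a peak had no replicate and was not tested between genotypes. Each H3K4me3 and H3K27Ac peak carried a score for each library, which exists only for peaks on the list and was not tested between genotypes either. Oct4 came as 1 list per library. The lists held no read counts, so the depth behind each peak is unknown.

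H3K4me3 marks the start sites of genes that are transcribed and also those of many genes that are kept ready but silent. H3K27Ac is laid down by the acetyltransferases p300 and CBP at active promoters and enhancers. In mESCs, CpG-rich promoters of developmental regulators commonly carry H3K4me3 together with the Polycomb mark H3K27me3, a state called bivalent. H3K27me3 was not analysed here, so no member can be called bivalent from these lists. Absence of H3K27Ac means only that the combined WT list held no peak at the site.

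The bases before the TSS are shown for 4 members that the results below turn on, and for 1 promoter with H3K27Ac as a contrast. Each run is the 200 bases directly upstream of the gene's outermost TSS near the peak, read 5′ to 3′ on the gene's strand of mm9, with CpG dinucleotides in capitals. Dmrt3 (chr19:25684827-25685026, plus strand) was the developmental transcription factor with the highest H3K4me3 score. Rad54l2 (chr9:106691545-106691744, minus strand) is a high-scoring gene that the DNA repair list took in by its symbol, and it had H3K27Ac in Spen KO. Spen (chr4:141094513-141094712, minus strand) held the highest H3K27Ac score in Spen KO among members. Vrtn (chr12:85981769-85981968, plus strand) was the second highest-scoring member that was missing from the Spen KO H3K4me3 list, and Rps3a (chr3:85946625-85946824, minus strand) is a ribosomal protein gene with H3K27Ac.
Dmrt3: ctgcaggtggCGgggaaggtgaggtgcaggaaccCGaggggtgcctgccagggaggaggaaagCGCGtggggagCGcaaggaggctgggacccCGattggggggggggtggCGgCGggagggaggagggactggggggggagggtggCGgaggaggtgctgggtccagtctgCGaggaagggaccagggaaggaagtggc
Rad54l2: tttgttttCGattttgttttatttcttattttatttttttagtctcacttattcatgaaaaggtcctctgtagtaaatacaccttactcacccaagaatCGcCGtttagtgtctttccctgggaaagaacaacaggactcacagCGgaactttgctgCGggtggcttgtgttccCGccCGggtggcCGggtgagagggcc
Spen: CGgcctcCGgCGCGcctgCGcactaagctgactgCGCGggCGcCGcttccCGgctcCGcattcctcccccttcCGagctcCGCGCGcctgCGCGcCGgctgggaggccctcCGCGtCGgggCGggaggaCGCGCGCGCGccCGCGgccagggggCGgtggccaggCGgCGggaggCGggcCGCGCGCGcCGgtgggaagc
Vrtn: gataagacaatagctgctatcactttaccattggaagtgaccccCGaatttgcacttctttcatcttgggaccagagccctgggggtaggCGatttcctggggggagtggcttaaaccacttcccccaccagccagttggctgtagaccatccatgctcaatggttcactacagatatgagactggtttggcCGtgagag
Rps3a: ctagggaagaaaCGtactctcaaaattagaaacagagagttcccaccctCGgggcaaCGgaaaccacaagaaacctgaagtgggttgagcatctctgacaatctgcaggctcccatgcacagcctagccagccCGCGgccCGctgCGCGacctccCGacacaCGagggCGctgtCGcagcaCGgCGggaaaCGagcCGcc
The Spen window held 38 CpGs and 83% G and C. Rps3a had 16 CpGs, Dmrt3 had 10, Rad54l2 had 8 and Vrtn had 3. Dmrt3 was rich in G and C at 72%, against 45% for Rad54l2 and 51.5% for Vrtn.

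The lists were first compared with their labels. All 13 embryonic stem cell markers found among autosomal genes had a promoter peak with H3K27Ac in WT, among them Pou5f1, Nanog and Sox2. None of 8 primitive endoderm markers and none of 7 fibroblast markers had H3K27Ac at a promoter. One Oct4 library stood apart: 73.8% of the peaks of WT replicate 1 lay near a TSS, against 21.2% to 26.9% in the other 3 libraries. The Spen KO lists were shorter than the WT lists for H3K4me3 (31091 against 34823 peaks) and H3K27Ac (11932 against 13922) and longer for H3K9me3 (70268 against 53745 domains). The targeted gene itself was a member. At Spen, on chromosome 4, both genotypes had H3K4me3 at the promoter, and the Spen KO list held 8 H3K4me3 peaks around the gene against 6 in WT. From chr4:141073151 to 141085360, downstream of the promoter, Spen KO alone had H3K4me3 peaks. Between chr4:141035580 and 141073151 neither genotype had one. The study describes a deletion of most of the gene. Which bases were removed is not given in the sources used here, so the lists do not check the deletion.

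Members were narrower and weaker than promoter peaks with H3K27Ac. These widths and scores come from the list that chose the members and are a description. The median width of members was 2104 bp, with the middle of the distribution between 1371 and 2831 bp (quartiles). Promoter peaks with H3K27Ac had a median of 3160 bp, and all autosomal H3K4me3 peaks 1476 bp. Each peak carries a score for each of the 2 libraries, and peaks were ranked by the mean of both. The median member ranked at the 69.6th percentile of the whole WT list, promoter peaks with H3K27Ac at the 84.7th, and all autosomal peaks at the 50.2nd. Members were therefore above the middle of the list but below promoters with H3K27Ac. Among members the scores of the 2 WT libraries had a Spearman rho of 0.715 over 11308 peaks, which share genome and peak calling. When the list was cut into 5 classes of equal size by score, 33.0% of members fell in the highest class and 8.76% in the lowest. H3K27Ac-bearing promoters had 58.7% in the highest class.

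**Figure D1:**
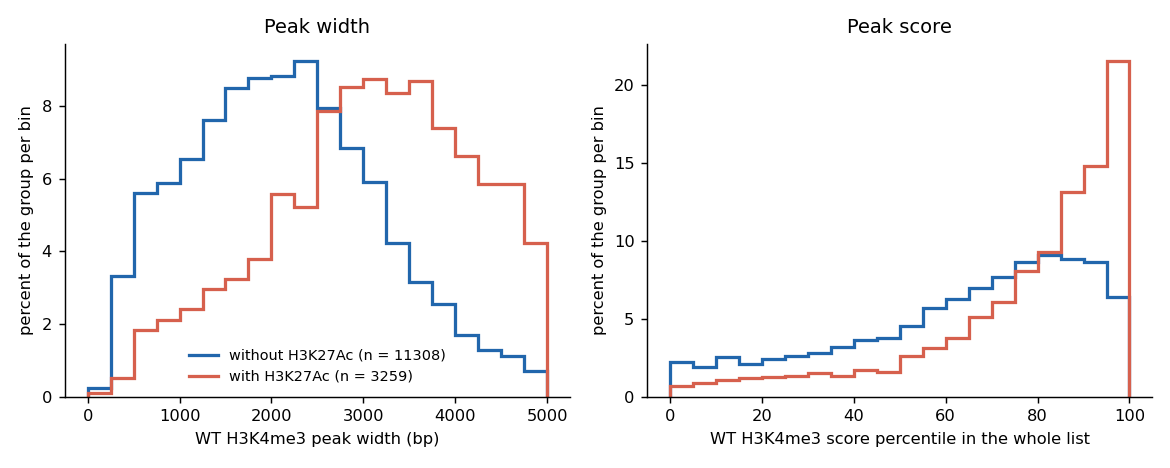
Distribution of WT H3K4me3 peak width (left, bp) and of the score percentile in the whole WT list (right) for 11308 members and 3259 promoter peaks under 5000 bp with H3K27Ac; the vertical axes give the percent of each group per bin. Members peak at narrower widths (median 2104 against 3160 bp) and are spread over lower percentiles (median 69.6 against 84.7).

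The share of promoter peaks without H3K27Ac fell as H3K4me3 rose. Of promoter peaks under 5000 bp without H3K9me3, 88.7% lacked H3K27Ac in the lowest score class and 66.1% in the highest. A TSS lay inside 86.9% of members, and the rest lay beside one. Fewer members than H3K27Ac promoters served both strands (6.80%, Wilson 95% interval 6.35 to 7.28, against 12.9%, 11.8 to 14.1) or more than 1 gene (7.97% against 14.7%). TSSs were counted up to 1000 bp from each peak, so a wider peak covers more sequence. At promoter peaks of 5000 bp or wider these shares were 26.7% and 32.4%. Members were the narrower group, and the groups were not matched for width. A WT H3K27Ac peak lay within 1000 bp of 3.72% of members and within 10 kb of 15.8%. All intervals here cover counting error only, and neighbouring peaks are not independent.

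The 3 members with the highest WT scores were not developmental genes. Members named for a high WT score tend to score lower in any other list by that choice alone. The second Spen KO library also scored lower than the first (medians 24.8 and 35.5 over members in both lists). Scores of genes so named, here and below, therefore do not measure a change between genotypes. Adarb1, which encodes an RNA-editing adenosine deaminase, scored 104.3 and 109.5 in the WT libraries, then 63.8 and 28.4 in those of Spen KO. Pitpna, a phosphatidylinositol transfer protein, had 89.1 and 109 in the WT libraries, then 70.8 and 34.3 in those of Spen KO. Leo1, a subunit of the PAF1 transcription elongation complex, had 93.5 and 89.5 in the WT libraries, then 58.2 and 76.6 in those of Spen KO. All 3 were in the highest score class, and Leo1 alone among them had H3K27Ac in the Spen KO list. The nearest WT H3K27Ac peak was 168765 bp from Adarb1, 28814 bp from Pitpna and 26829 bp from Leo1.

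Among genes with an H3K4me3 promoter peak, those of development and of differentiated cells were mostly members in WT, and the union of the housekeeping lists had a lower share. Genes were counted by symbol, with every gene within 1000 bp of a peak. Among 14209 autosomal genes with an H3K4me3 promoter peak in WT, 10145 (71.4%) had a member and 4367 (30.7%) had a promoter with H3K27Ac. The gene lists were matched by symbol, so each also takes in genes with a like name.

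**Figure D2:**
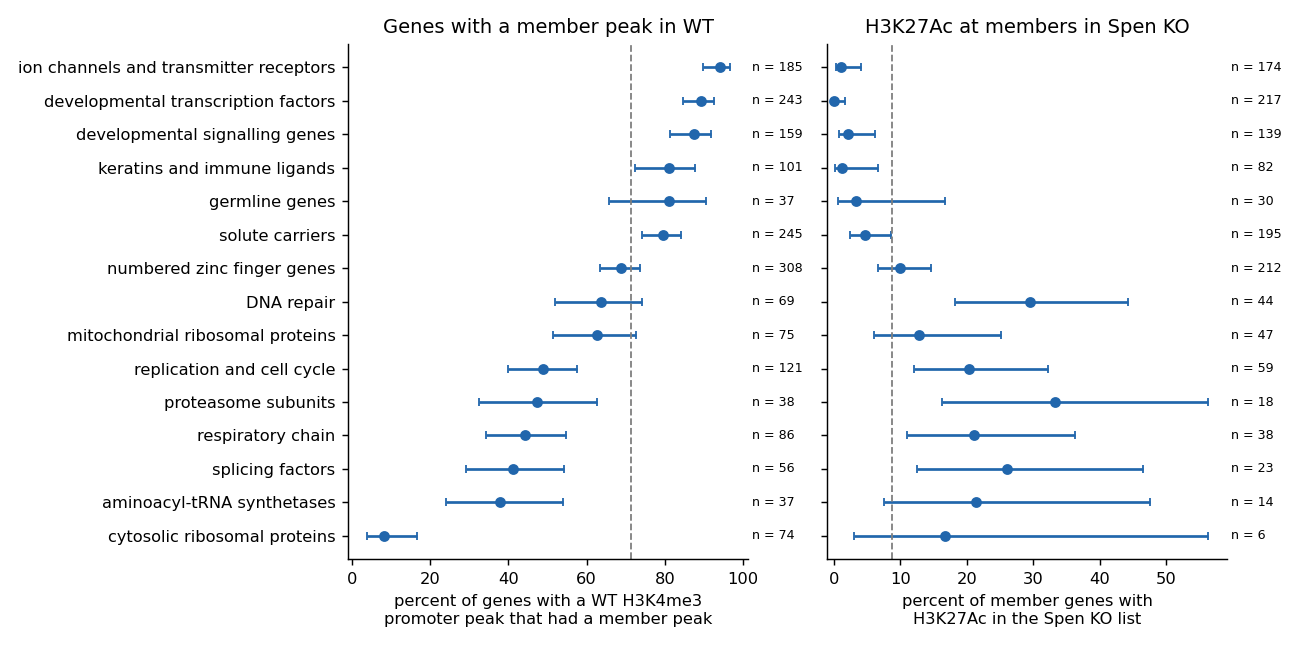
Left, percent of genes with a WT H3K4me3 promoter peak that had a member peak, by gene list, with n the number of such genes; right, percent of member genes with H3K27Ac in the Spen KO list, with n the number of member genes. Points are shares with Wilson 95% intervals and dashed lines are the shares over all genes (71.4% and 8.77%); ion channel and developmental lists lie right of the line on the left and left of it on the right.

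Developmental transcription factors, the Hox, Fox, Sox, Pax and other families that set cell identity, were members at 217 of 243 genes with H3K4me3 (89.3%, 84.8 to 92.6). Only 14 of the 243 had a promoter with H3K27Ac. These were Foxa3, Foxh1, Gbx2, Olig1, Olig2, Six4, Sox2, Sox11, Sox12, Sox13, Sox15, Tbx3, Zic2 and Zic5, a set that holds the pluripotency factor Sox2 and the Nodal effector Foxh1. The members with the highest scores were Dmrt3, Pou3f1 and Foxd4. Dmrt3, which specifies spinal interneurons, scored 64.9 and 63.0 in the WT libraries, then 56.6 and 40.7 in those of Spen KO. Pou3f1, a POU factor of epiblast and nervous system, scored 64.5 and 58.3 in the WT libraries, then 47.5 and 30.9 in those of Spen KO. Foxd4, a forkhead factor, scored 52.5 and 69.5 in the WT libraries, then 56.6 and 47.2 in those of Spen KO. All 3 overlapped a Spen KO peak. The Pou3f1 peak was 4558 bp wide in WT, and the highest-scoring Spen KO peak over it 1490 bp. At Dmrt3 these widths were 1821 and 1733 bp.

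The 4 Hox clusters, which pattern the body axis, were members at every gene with that name that the annotation gave. All 11 Hoxa, 10 Hoxb, 9 Hoxc and 9 Hoxd genes had a member, and none had H3K27Ac at a promoter in WT or at a member in Spen KO. Their member peaks were 337 to 4414 bp wide and lay between the 1.63rd and the 84.3rd percentile. Over all members 88.4% overlapped a Spen KO peak, and over all autosomal H3K4me3 peaks 76.4%. In the Spen KO list 12 of 17 peaks remained at Hoxa, 8 of 12 at Hoxb, 9 of 12 at Hoxc and 9 of 16 at Hoxd. By genes, only Hoxa2, Hoxb3, Hoxb5 and Hoxd12 among the Hox genes kept no member peak. All 162 member peaks of developmental transcription factors, Hox included, that scored in the upper 40% of the WT list were kept.

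Developmental signalling genes (ligands, receptors and guidance factors) were members at 139 of 159 genes (87.4%). The highest scores were at the semaphorins Sema4d, Sema7a and Sema6b, which guide axons and cells. Sema4d, which also had another promoter with H3K27Ac, scored 72.9 and 72.7 in the WT libraries, then 58.5 and 53.7 in those of Spen KO. Sema6b was at the 97.2nd percentile of the WT list and the 55.2nd of the shorter Spen KO list, with library scores of 68.5 and 63.9 in the WT libraries, then 18.6 and 30.2 in those of Spen KO. Ion channels and transmitter receptors were members at 174 of 185 genes (94.1%), led by the potassium channel gene Kcnn2, the calcium channel subunit Cacng4 and the pacemaker channel Hcn2. Kcnn2 scored 71.6 and 88.9 in WT. Only 10 of the 185 had H3K27Ac at a promoter.

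Protocadherins, cell adhesion proteins of neurons, had H3K4me3 at 13 of 34 genes, and 10 of the 13 were members (76.9%, 49.7 to 91.8). Of 1399 olfactory and vomeronasal receptor genes 1386 had no H3K4me3 promoter peak, and 10 were members, among them Olfr1344 at the 76.5th percentile. Germline genes were members at 30 of 37 genes with H3K4me3 (81.1%, 65.8 to 90.5). They were led by Nanos1, an RNA-binding regulator of germ cells, and the Tudor genes Tdrd6 and Tdrd7. For protocadherins, for olfactory and vomeronasal receptors (49.7 to 91.8) and for germline genes the intervals include the 71.4% over all genes. Keratins, CD antigens and immune ligands were members at 82 of 101 genes (81.2%), while 281 of the 382 annotated had no H3K4me3 promoter peak, and the leading members were the CD antigens Cd24a, Cd151 and Cd320. Solute carriers, the membrane transporters, were members at 195 of 245 genes (79.6%). Slc45a4 led them with scores of 81.1 and 86.0 in WT, and a WT H3K27Ac peak lay 279 bp from it. Numbered zinc finger genes, many of them KRAB repressors, were members at 212 of 308 genes (68.8%), close to the share over all genes, and Zfp747, Zfp420 and Zfp398 scored highest. Among the marker lists, 7 of 8 primitive endoderm markers (led by Pdgfra, Gata4 and Sox7) and 5 fibroblast markers (led by Twist2, Thy1 and Col1a2) were members. The intervals of these marker lists (52.9 to 97.8 and 56.6 to 100) also include the 71.4%. Esrrb was the single embryonic stem cell marker with a member peak, and it also had another promoter with H3K27Ac.

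Housekeeping genes, taken as the union of 8 lists, were members at 249 of 556 genes with H3K4me3 (44.8%, 40.7 to 48.9), and 61.7% had a promoter with H3K27Ac. The lists differed among themselves. All 74 cytosolic ribosomal protein genes had H3K27Ac, and 6 of them (Rpl5, Rpl6, Rpl13a, Rplp2, Rps20 and Rpsa) had a member peak as well. The 3 strongest of these lay beside the TSS, at 262 bp for Rpsa, 149 bp for Rpl5 and 729 bp for Rpl6, and Rpsa scored 29.2 and 24.9. DNA repair genes were members at 44 of 69 genes (63.8%) and mitochondrial ribosomal protein genes at 47 of 75 (62.7%), with intervals of 52.0 to 74.1 and 51.4 to 72.7 that include the share over all genes. Members were found at replication and cell cycle genes for 59 of 121 (48.8%) and at proteasome subunits for 18 of 38 (47.4%). Respiratory chain genes were members at 38 of 86 (44.2%), splicing factors at 23 of 56 (41.1%) and aminoacyl-tRNA synthetases at 14 of 37 (37.8%). The leading members of these lists had high scores. The Fanconi anaemia gene Fancd2 scored 73.2 and 70.8, the kinetochore gene Cenph 76.5 and 77.7, and the mitochondrial ribosomal gene Mrpl53 79.9 and 76.0. The proteasome regulatory subunit Psmd13 scored 68.3 and 67.8, and Lsm11, of the U7 particle that processes histone mRNA, 78.2 and 66.0. Cox7a2l, a factor of respiratory supercomplexes, scored 69.7 and 82.7, and the synthetase gene Iars2 scored 57.1 and 64.6.

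By peaks instead of genes, 301 members (2.66%, 2.38 to 2.97) lay at developmental transcription factors and 270 (2.39%, 2.12 to 2.69) at housekeeping genes. Among 3259 promoter peaks with H3K27Ac the counts were 10 (0.307%) and 273 (8.38%).

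Most members kept H3K4me3 in Spen KO. A Spen KO H3K4me3 peak overlapped 9993 of 11308 members (88.4%, 87.8 to 88.9). The share over all autosomal WT H3K4me3 peaks was 76.4%, and over promoter peaks with H3K27Ac it was 96.3% (95.6 to 96.9). Presence was not tested between genotypes, since each gave 1 list. Retention followed the WT score. It was 28.2%, 61.6%, 94.6% and 99.5% of members from the lowest score class to the fourth, and 3731 of 3732 in the highest. Promoter peaks with H3K27Ac gave 49.2%, 75.7%, 96.9% and 99.7% in the same order, and 1913 of 1914 in the highest class. The groups thus differed by more than their intervals in the lowest 2 classes and were both near complete in the upper 2.

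**Figure D3:**
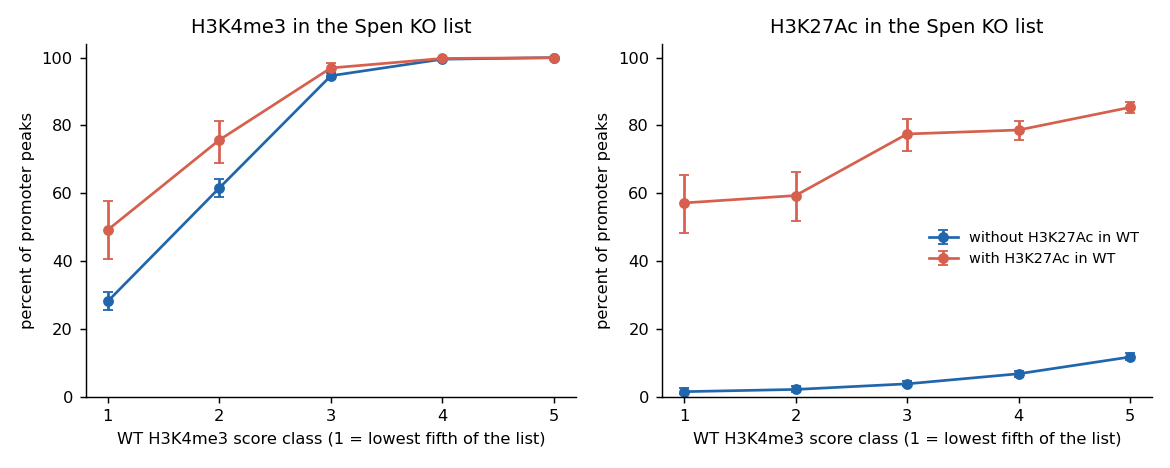
Percent of promoter peaks with H3K4me3 (left) and with H3K27Ac (right) in the Spen KO lists by class of WT H3K4me3 score, for members and for promoter peaks with H3K27Ac in WT; points are shares and bars Wilson 95% intervals. H3K4me3 retention climbs from 28.2% to 3731 of 3732 members, while H3K27Ac at members climbs from 1.51% to 11.7% and stays far under the other group.

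Width and position moved with retention as well. It was 46.5% for members under 1000 bp and 99.6% for those of 4000 bp or wider. A TSS inside the peak went with 94.0% retention, and a TSS beside it with 51.2% (48.7 to 53.8). Where several Spen KO peaks overlapped a WT peak, the highest-scoring was taken, so a peak split in Spen KO counts by a part. Members found in both lists were 2253 bp wide at the median, and the Spen KO peaks taken 1712 bp. For promoters with H3K27Ac in both lists the medians were 3209 and 2569 bp. The Spen KO peak was the wider one at 11.6% of members, against 17.5% of promoters with H3K27Ac. The median rank of members in both lists was the 73.4th percentile in WT and the 69.0th in Spen KO. The 2 Spen KO libraries were scored unequally, with medians of 35.5 and 24.8, while the 2 WT libraries had medians of 36.4 and 37.5 over these members.

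The 1315 members without a Spen KO H3K4me3 peak were mostly weak. Their median width was 737 bp and their median WT percentile 17.98. A Spen KO peak lay within 1000 bp of 44.3% of them, and 70.3% (67.7 to 72.7) were at a gene that had another Spen KO promoter peak. Of 9488 gene symbols named by members, 377 (3.97%, 3.599 to 4.39) had no Spen KO promoter peak, against 20 of 2961 (0.675%) for promoters with H3K27Ac.

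The absent members with the highest WT scores were Osbpl1a, Vrtn, Esrra, Slc39a3, Ddx19b, Gng7, Pabpc6, Rap1gap, BC055111 and Slitrk5. Osbpl1a, an oxysterol-binding protein gene, scored 58.7 and 50.6 in WT, the only absent member in the highest score class. Vrtn, which bears on vertebral number, scored 43.6 and 36.1 over a 2933 bp peak (chr12:85981762-85984694), and the nearest Spen KO H3K4me3 peak was 4667 bp away. Esrra, an orphan nuclear receptor of energy metabolism, scored 31.5 and 43.1 (chr19:6993793-6997734) and had no Spen KO H3K4me3 but did have Spen KO H3K27Ac, with scores of 16.6 and 17.1. Some absent members lay close to a Spen KO peak. The nearest Spen KO peak was 283 bp from BC055111 and 916 bp from Ddx19b. Slitrk5, a neuronal membrane protein gene, scored 33.6 and 28.3, and its nearest Spen KO peak was 3601 bp away.

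By genes, 9595 of 10145 with a member (94.6%) kept a member peak in Spen KO. At developmental transcription factors it was 210 of 217 (96.8%), near that share. By peaks the share was 246 of 301 (81.7%, 77.0 to 85.7), below the 88.4% over all members. Housekeeping genes kept 243 of 270 peaks (90.0%, 85.8 to 93.0), near that 88.4%. In the upper 2 score classes all 162 and all 193 peaks of these groups were kept. Over all members in these 2 classes it was 7061 of 7078 (99.8%), so these counts were near the general share. By genes, the germline list kept 23 of 30 (76.7%), against the 94.6% over all genes with a member, with Asz1, Mov10l1, Nanos3, Piwil2, Piwil4, Rpl10l and Spo11 absent. Over the whole germline list, kept and absent, the member peaks were narrow, with a median of 890 bp and a median WT percentile of 36.7.

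H3K27Ac was present at 783 members in the Spen KO list (6.92%, 6.47 to 7.41). The share was 1.51% with the stronger 50% of that list and 9.78% when a gap of 1000 bp was allowed. That gap was allowed in Spen KO only, and 3.72% of members had a WT H3K27Ac peak within 1000 bp. Over all autosomal WT H3K4me3 peaks without WT H3K27Ac the share was 4.56%. The same count was made from the other side. Of 10914 Spen KO promoter peaks chosen by the same rule in the Spen KO lists, 666 (6.10%, 5.67 to 6.57) had H3K27Ac in WT. Promoter peaks with H3K27Ac in WT kept it at 80.6% (79.2 to 81.9). In all, 9197 members (81.3%) met the same rule in Spen KO, with H3K4me3 and neither other mark.

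The share with Spen KO H3K27Ac also followed the WT H3K4me3 score. It was 1.51%, 2.17%, 3.81%, 6.78% and 11.7% from the lowest to the highest class. By width it was 2.18% under 1000 bp and 15.8% from 4000 bp upwards. The H3K27Ac peaks themselves were small. They ranked at a median 31.2nd percentile of the Spen KO H3K27Ac list with a median width of 626 bp. Promoters with H3K27Ac in both genotypes ranked at the 67.9th percentile with a width of 1084 bp. A TSS lay inside 732 of the 783 members, and 58 (7.41%) had a WT H3K27Ac peak within 1000 bp, against 3.45% of the members without Spen KO H3K27Ac. Among members with a TSS inside, no WT H3K27Ac within 10 kb and none at another promoter of the gene, 569 of 8319 (6.84%, 6.32 to 7.40) had Spen KO H3K27Ac.

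The highest H3K27Ac score at a member was at Spen itself. Its WT H3K4me3 peak (chr4:141090562-141094471, 3910 bp) scored 27.8 and 41.2, and the overlapping Spen KO peak scored 54.8 and 32.2 over 9011 bp. The Spen KO H3K27Ac peak (chr4:141091960-141094464) scored 54.6 and 64.0, at the 98.6th percentile of that list, and the nearest WT H3K27Ac peak was 7545 bp away. The sequence before this TSS is the CpG-dense run printed above. The gene is the one targeted in the clone.

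The next highest were Ep300, 2810403A07Rik, Zbtb2, D930014E17Rik, Wapal, Zbtb34, Hist1h2al, Rnf220 and Rfc5. At 5 of these 10 a WT H3K27Ac peak lay within 1000 bp of the member. Ep300, the gene of the acetyltransferase p300, had it 270 bp away, 2810403A07Rik 219 bp, the zinc finger gene Zbtb2 198 bp, the cohesin release factor gene Wapal 11 bp and the ubiquitin ligase gene Rnf220 644 bp. The members at these 5 genes lay beside the TSS and not over it. The others lay over their TSS. Zbtb34, a BTB zinc finger gene (chr2:33284307-33287894), scored 65.1 and 47.6 for WT H3K4me3 and 38.5 and 23.8 for Spen KO H3K27Ac, with WT H3K27Ac 5378 bp away. D930014E17Rik, a gene without an assigned name, had Spen KO H3K27Ac scores of 35.7 and 31.7 over 655 bp, and the nearest WT peak was 169030 bp away. Rfc5, a subunit of the clamp loader of DNA replication (chr5:117836633-117839744), scored 48.6 and 64.6 for WT H3K4me3 and 35.6 and 24.7 for Spen KO H3K27Ac over 2875 bp, with a WT peak 2131 bp away. Hist1h2al, a histone H2A gene, belongs to a family of near-identical copies, so its reads may be split among them.

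The gene groups differed in Spen KO H3K27Ac more than in retention of H3K4me3. None of the 301 member peaks at developmental transcription factors had it, and a count of 0 allows a share of up to 0.997% (3 counts of 301; the Wilson upper limit is 1.26%). At housekeeping genes it was present at 53 of 270 peaks (19.6%, 15.3 to 24.8). The contrast was also present in the upper 2 score classes, with 0 of 162 against 43 of 193 (22.3%, 17.0 to 28.7), where all members had 665 of 7078 (9.40%). Where the TSS was inside the peak and no WT H3K27Ac lay within 1000 bp or at another promoter of the gene, the counts were 0 of 246 at developmental transcription factors and 46 of 202 at housekeeping genes. These lists were drawn up with earlier results of these data known and got no test.

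By genes, DNA repair had 13 of 44 member genes (29.5%, 18.2 to 44.2), against 8.77% over all genes with a member. They were Ercc1, Fancf, Fancg, Fancl, Msh3, Nbn, Pms2, Rad50, Rad54b, Rad54l2, Rnaseh2a, Rnaseh2c and Xpc. Rad54b and Rnaseh2a also had another promoter peak with H3K27Ac in WT. Most of the genes act in excision repair, mismatch repair, crosslink repair or break repair, and Rad54l2 was taken in by its symbol. Proteasome subunits had 6 of 18 (Psma5, Psmc2, Psmc3, Psmc4, Psmd13 and Psmd14), and splicing factors had 6 of 23. Of these, Psmc2 and the splicing factor gene Snrpa also had another promoter peak with H3K27Ac in WT. Replication and cell cycle genes had 12 of 59, among them Cenpe, Cenpf, Cenph, Gins1, Mcm8, Rfc5 and Rpa1. Respiratory chain genes had 8 of 38. Aminoacyl-tRNA synthetases had 3 of 14 (7.57 to 47.6), mitochondrial ribosomal genes 6 of 47 (5.98 to 25.2) and cytosolic ribosomal genes 1 of 6 (3.01 to 56.4), the side peak at Rpsa. The intervals given for these last lists include the 8.77% over all genes with a member. The H3K27Ac peaks of the leading members ranked from low to above the middle of the Spen KO list. H3K27Ac at Rad54l2 scored 10.7 and 22.6 over 228 bp (39.1st percentile), at Cenph 15.4 and 22.0 over 713 bp (50.3rd), and at Iars2 23.8 and 20.8 over 656 bp (64.3rd).

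Several lists of development and differentiated functions had fewer. Developmental signalling genes had 3 of 139 (the receptor gene Bmpr2, the growth factor gene Fgf2 and the Wnt receptor gene Fzd10), and ion channels 2 of 174 (Adrb3 and Kcnn2). Keratins, CD antigens and immune ligands had 1 of 82, which was Cd97. Germline genes had 1 of 30, which was Nanos1, with an interval (0.591 to 16.7) that includes the 8.77% over all genes with a member. Solute carriers had 9 of 195, and zinc finger genes 21 of 212 (9.91%), close to the 8.77% over all 10145 genes with a member. Protocadherins, olfactory receptors and the 3 marker lists had none, each from 10 or fewer member genes.

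H3K9me3, the mark of heterochromatin and silenced repeats, was nearly absent from members in Spen KO as in WT, where the rule had excluded it. A Spen KO H3K9me3 domain overlapped 35 members (0.310%, 0.223 to 0.430). Over all autosomal WT H3K4me3 peaks without WT H3K9me3 the share was 1.59%, and over promoters with H3K27Ac it was 0.307%. The members with the highest WT score among the 35 were Ccdc61, B930094E09Rik and Tsn. Ccdc61 scored 61.6 and 40.8 for WT H3K4me3 and 63.8 and 28.9 in Spen KO, so its H3K4me3 was kept. Tsn, which encodes the nucleic acid-binding protein translin, had both H3K9me3 and H3K27Ac in Spen KO. The germline genes Mael, Mov10l1 and Sycp1 were also among the 35, and were named after their values were seen.

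Oct4, the POU factor that maintains pluripotency, overlapped few members. The share was 6.005% in WT replicate 1, 4.26% in WT replicate 2, and 2.33% in each of the Spen KO libraries. Over all autosomal H3K4me3 peaks the shares were 4.36%, 4.84%, 3.35% and 3.35% in the same order. Both WT libraries were above both Spen KO libraries at members, and WT replicate 1 was the library that stood apart in its peaks near TSSs. The lists also differed in length, with 1806 and 4111 Oct4 peaks in the WT libraries and 2617 and 3028 in those of Spen KO. WT replicate 2 had the longest list, and a longer list can overlap more members. WT libraries averaged 5.13% ± 1.23 (SD, n = 2). Spen KO libraries averaged 2.33% ± 0.00625 (SD, n = 2). Spen KO minus WT was -2.80 percentage points (two-sided exact permutation test, p = 0.3333, the smallest that 2 against 2 libraries can give). Without WT replicate 1 the difference was -1.93, and with the stronger 50% of each Oct4 list it was -1.38. The design cannot reach a p under 0.05. At promoters with H3K27Ac the 4 shares were 14.1%, 6.84%, 7.46% and 6.87%, and the groups overlapped (difference -3.30, exact permutation p = 1).

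**Figure D4:**
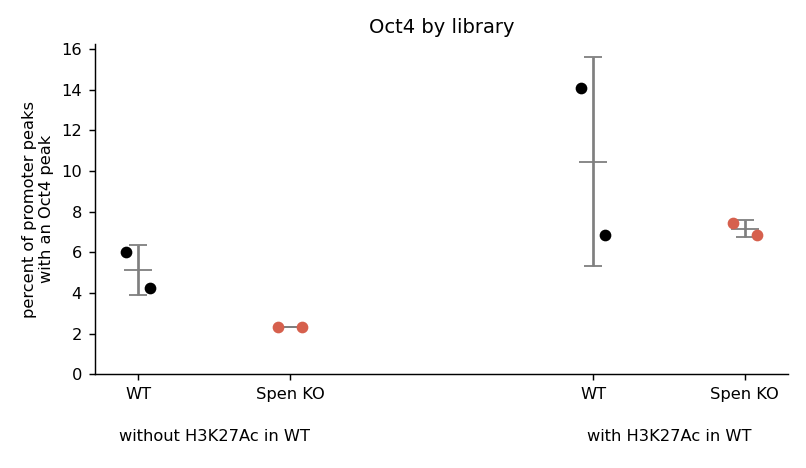
Percent of promoter peaks with an Oct4 peak in each library (points; black WT, red Spen KO), for members on the left and promoter peaks with H3K27Ac on the right; grey marks give the mean and SD of 2 libraries. At members both WT points (6.005% and 4.26%) lie above the Spen KO points (2.33% each), while at promoters with H3K27Ac the groups overlap.

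Oct4 peaks were seldom shared between libraries. No library had an Oct4 peak at 9947 members, and 1126 had one in a single library, of which 593 were in WT replicate 1 alone. All 4 libraries had a peak at 21 members. A peak in both libraries of one genotype and in neither of the other was found at 11 members for WT and at 23 for Spen KO. The WT lists were unlike each other, with 73.8% and 21.8% of their peaks near a TSS, which bears on the WT count. These counts were not made over all H3K4me3 peaks and do not measure a change between genotypes.

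By the usual limits most members had CpG-rich start sites, and those absent from Spen KO mostly did not. The window from 250 bases before to 50 bases after the nearest TSS was read from mm9 for 11301 members. A window was called CpG-rich at an observed to expected CpG ratio of at least 0.6 and at least 50% G and C. With stricter limits, a ratio of at least 0.75 and 55% G and C, the share of members was 41.1%. The usual limits held for 60.9% of members (60.003 to 61.8), 70.1% of promoters with H3K27Ac (68.5 to 71.6) and 40.7% of all 67105 autosomal protein-coding TSSs. It held for 1.43% of the TSSs of genes without an H3K4me3 promoter peak. Members at housekeeping genes were CpG-rich at 72.5% and those at developmental transcription factors at 59.8%.

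Among members, 78.2% (75.1 to 80.9) of those with Spen KO H3K27Ac were CpG-rich, against 25.8% (23.5 to 28.2) of those absent from the Spen KO H3K4me3 list. With the TSS inside the peak, the share was 68.0% of the members that were kept and 16.6% (13.8 to 19.8) of those that were absent. Read the other way, H3K4me3 was kept at 95.1% of CpG-rich and 77.9% of CpG-poor members, and H3K27Ac was found at 8.89% and 3.87%. CpG-rich members were also wider (median 2371 against 1574 bp) and ranked higher (77.5th against 50.5th percentile). Within score classes the difference in H3K4me3 was small. From the lowest class to the fourth it was kept at 25.6%, 61.7%, 96.6% and 99.7% of CpG-rich members and at 28.9%, 61.5%, 92.9% and 99.1% of CpG-poor members, and the intervals were apart in class 3 alone (95.2 to 97.6 against 91.2 to 94.3). In the highest class it was kept at 3056 of 3057 and 674 of 674. H3K27Ac in Spen KO was found at 5.89% (4.54 to 7.60) of CpG-rich and 2.05% (1.36 to 3.08) of CpG-poor members in class 3, and at 7.74% (6.72 to 8.89) and 4.58% (3.45 to 6.05) in class 4. In the highest class it was 11.9% (10.8 to 13.1) and 10.8% (8.70 to 13.4), and in the lowest 2 classes the intervals also overlapped.

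**Figure D5:**
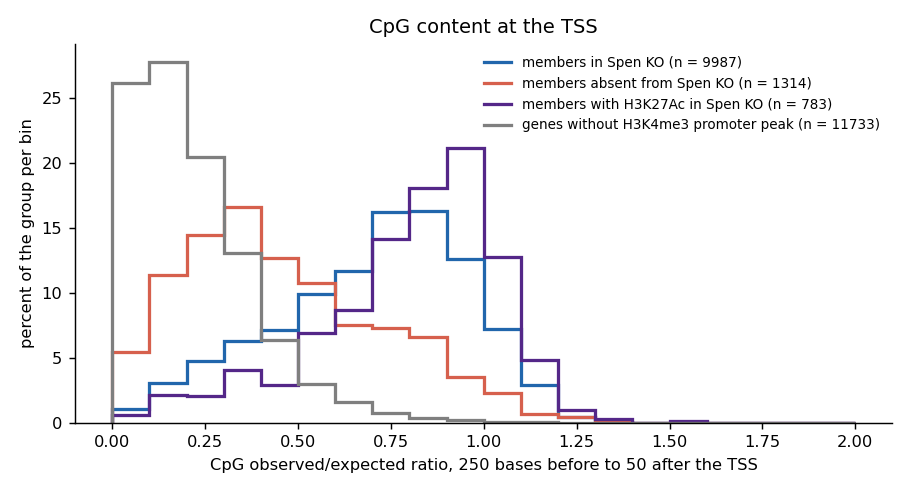
Distribution of the CpG observed to expected ratio in the window from 250 bases before to 50 after the TSS, for members kept in Spen KO, members absent from it, members with Spen KO H3K27Ac and TSSs of genes without an H3K4me3 promoter peak; the vertical axis is the percent of each group per bin of 0.1. Absent members have a median ratio of 0.415, members with Spen KO H3K27Ac 0.852 and genes without H3K4me3 0.184.

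The windows were also searched on both strands for 10 short motifs, none of which contains another. The GC box GGGCGG was found at 61.4% of members, 61.8% of promoters with H3K27Ac and 40.4% of all windows. The CCAAT box was at 32.8%, 33.2% and 34.4%, the TATA box TATAAA at 5.91%, 6.14% and 11.2%, and the E-box CACGTG at 8.60%, 9.21% and 7.30%. The largest ratios were at 4 longer motifs. The YY1 motif AAGATGGCG was at 1.57% of members and 5.25% of promoters with H3K27Ac (1.96% of all windows), and the ETS motif CCGGAAGT was at 4.88% and 7.80% (4.61%). The NRF1 motif GCATGCGC was at 3.45% and 6.14% (3.12%), and TCGCGAGA at 0.920% and 2.61% (1.20%). In the 783 members with Spen KO H3K27Ac these 4 were at 4.60%, 8.81%, 6.003% and 2.81%. The cyclic AMP response element TGACGTCA was at 2.66% of members and 3.13% of promoters with H3K27Ac (2.05%), and the POU octamer ATGCAAAT was at 1.04% and 1.32% (1.39%). At developmental transcription factors no member window held the YY1 or the ETS motif, while 47.6% held CCAAT. These are matches of letters, and no binding was measured.

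The peaks next to each limit of the rule were as follows. The widest members were Wdr8 (4999 bp), Hsf4 (4998 bp) and Pofut2 (4997 bp), and the narrowest promoter peaks left out for width alone were Cenpl and Lsmd1 (5006 bp each) and Tshz1 (5010 bp). Inside, Wdr8 was at the 82.3rd WT percentile, Hsf4 at the 56.3rd and Pofut2 at the 81.4th. Outside, Cenpl was at the 85.8th, Lsmd1 at the 96.4th and Tshz1 at the 56.04th, and Lsmd1 had Spen KO H3K27Ac. The members farthest from a TSS were Akap1, Plk2 and Hsd17b4, each at 1000 bp and between the 2.92nd and 18.7th percentile. The peaks just outside were those near Kitl (1001 bp), Rexo4 and Slc30a7 (1002 bp each), between the 8.46th and 28.4th.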

How the data were processed

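The members and gene lists were chosen with earlier results of these data known. Per the study's methods, the authors aligned reads to mm9 with Bowtie2, removed duplicates with Picard, called peaks with MACS2 against input and combined paired libraries by the irreproducible discovery rate. Each deposited H3K4me3 and H3K27Ac list gives peak positions and, for each library, a score from the authors' peak caller whose column is not stated. The deposited H3K9me3 lists hold domains in 200-bp windows with a p-value (or false discovery rate, not stated) and a score, and their caller is not given in the sources used here. The deposited Oct4 lists give a score, fold enrichment as a ratio and −log10 p and q values per library. No list holds read counts, so depth is unknown.

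Overlap meant at least 1 shared base. TSSs were protein-coding transcripts of GENCODE vM1. Scores were ranked as percentiles of the whole list. Shares carry Wilson 95% intervals. A count of 0 is given with a limit of 3 counts. The split of CpG classes by score and the housekeeping count away from WT H3K27Ac were added after seeing the data. Oct4 was compared by a two-sided exact permutation test over libraries. Named genes were the 3 members with the highest WT score per list and among all members, the 10 with the highest Spen KO H3K27Ac score, the 10 highest-scoring absent members, the 3 highest-scoring with Spen KO H3K9me3 and the 3 on each side of each limit. Other genes are given as full lists or were picked after their values were seen. Python 3.11.15, numpy 2.4.6, pandas 2.3.3, scipy 1.17.1 and matplotlib 3.10.9 were used, and the overlap code was tested on simulated data. Alternatives covered the TSS distance, the overlap rule, list strength and length, the score, the CpG limits and leaving out Oct4 libraries.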

Additional observations from a re-analysis of the deposited data

How the results depend on the processing

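Of 60 alternatives, 26 moved a value beyond its counting interval. The number of members ranged from 8233 (stronger 50% of the WT list) to 11555 (no width limit), within 1.5 times of 11308, and no alternative turned the Oct4 difference. Requiring the TSS inside the peak gave a median percentile of 73.3, a width of 2255 bp, H3K4me3 retention of 94.0%, Spen KO H3K27Ac of 7.45% and CpG-rich windows at 64.9%. Excluding marks within 1000 bp gave 70.3, 2136.5 bp, 89.1% retention and 0.207% with H3K9me3. Judging absence per gene gave 70.9, 2144 bp, 90.04% retention, 62.4% CpG-rich and 2.07% at housekeeping genes. With the stronger 50% of the WT list, retention was 99.5%, H3K27Ac 8.75% and CpG-rich windows 72.8%. With the stronger 50% of the Spen KO list, retention was 65.7% and H3K27Ac 1.51%, since fewer peaks were left. An allowed gap of 1000 bp between a member and a Spen KO peak gave 93.5% retention, 9.78% H3K27Ac and 1.65% H3K9me3. The members were still chosen without a gap in WT. A 50% overlap gave 0.150% H3K9me3. Lists of equal length gave 91.4% retention, the first library's score a percentile of 68.2, and stricter CpG limits 41.1%.

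The Oct4 difference ranged from -3.67 to -1.93 when 1 library was left out and was -1.38 with the stronger 50% of each Oct4 list. With the replicate number as a block it was -2.80 (exact permutation p = 0.5, the smallest that 2 pairs allow), with pair differences of -3.68 and -1.93. The libraries share only a number, and with 2 per genotype their pairing could not be checked. Unknown depth and 1 list per genotype limit every other comparison.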

Other observations

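Some members followed each other along the chromosomes in long runs of promoter peaks. Members made up 71.3% of promoter peaks, so long runs would arise in any order. A gene with several peaks also lengthens a run, and run length was not tested. The longest run held 41 promoter peaks over 3.497 Mb (chr8:23169866-26666631), from Alg11 to Fgfr1, without a promoter peak of another class between them. A run of 31 peaks over 2.53 Mb (chr6:52106593-54633877) held the Hoxa genes, Evx1 and Jazf1, and one of 36 peaks over 1.13 Mb (chr18:36855053-37983090) held protocadherins together with Hars2, Ndufa2 and Taf7. A run of 38 peaks on chromosome 14 consisted mostly of Gm genes with near-identical copies, where read placement is uncertain.

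By chromosome, members made up 61.6% of promoter peaks on chromosome 17 and 76.4% on chromosome 6, the lowest and highest of the autosomes. Spen KO H3K27Ac was found at 6.92% of all members. By chromosome the lowest share was 2.99% on chromosome 17 and the highest 12.8% on chromosome 19, where it was 44 of 345. Peaks of 1 chromosome are not independent, and no test was made.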
